A study of Arabidopsis thaliana with 15 samples.

Results

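The comparison described here is hypocotyls of Arabidopsis thaliana 1 day after a change in day length, against hypocotyls taken on the day of that change. It asks which transcripts of this tissue differ within the first day of long days. The members are all genes that the array measured with a probe set annotated to exactly 1 gene: 16550 genes with 16722 such probe sets, out of 38408 probe sets in all. The ecotype is Col-0. The day 1 group had spent 6 weeks in short days (8 h of light) and then 1 day in long days (16 h of light). The day 0 group had only had the short days, so the groups share genotype, chamber temperature and all treatment before the switch. Each group holds 3 RNA samples, and each sample is a pool of 8 hypocotyls, so plant-to-plant variation within a pool is not visible. The whole series has 15 arrays, with 3 pools also on days 2, 4 and 10. The labels give no hour of harvest, so the time of day at sampling is unknown for both groups, and no plants were kept in short days for a further day, so the longer light period and 1 day of added age cannot be told apart.

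The hypocotyl is the stem below the seed leaves. In older rosettes it thickens like a small woody stem: a ring of dividing cambium cells makes xylem towards the inside and phloem towards the outside. While plants stay in short days the xylem holds mostly vessels and parenchyma, and the induction of flowering is followed by xylem with fibres, whose thick walls contain cellulose, xylan and lignin. A longer light period also acts on transcripts directly, through photoreceptors, through the circadian clock and through the supply of sugar from the leaves, and abscisic acid (ABA) controls many genes that protect cells from cold and water loss.

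The deposited values are array intensities on a linear scale, and all tests were made on their log2. A difference is day 1 minus day 0, so a positive value means more signal on day 1, and each ± beside a log2 difference is its standard error. Folds compare the geometric mean of the 3 day 1 pools with that of the 3 day 0 pools. A gene is called, or said to have risen or fallen, where limma's p-value, with Benjamini-Hochberg adjustment across the 38408 probe sets, was under 0.05. Every adjusted p given below is of this kind. Because tissue of whole hypocotyls was used, fewer cells of a type and less RNA per cell cannot be told apart. Median array intensities ran from 85.2 to 88.0 in the day 1 pools and from 88.0 to 90.6 in the day 0 pools. Of 7 measured markers of cambium, xylem and phloem, none lay in the dimmest of 4 equal bins of genes by intensity, and their summed intensity was 7732 to 8570 in the day 1 pools and 7303 to 8309 in the day 0 pools. Of 5 markers of the shoot meristem and its organs, 3 lay in that dimmest bin, with sums of 90.1 to 102 in the day 1 pools and 85.2 to 95.9 in the day 0 pools. The sum over 9 nuclear photosynthesis genes, which green tissue expresses strongly, was 4180 to 4989 in the day 1 pools and 5476 to 6031 in the day 0 pools. The photosynthesis sums do not overlap. Nor do the sums over 63 plastid-encoded genes, at 352760 to 363649 on day 1 and 365836.5 to 380085 on day 0. Sums over 6 xylan genes were higher on day 1 without overlap, at 3288 to 3456 against 3020 to 3184 on day 0. Such sums are weighted towards bright genes: of the 6 xylan genes 1 rose and 1 fell, and their median log2 difference was −0.006. Sums over 12 lignin genes overlapped, at 5986 to 6374 on day 1 and 5948 to 7007 on day 0. Whether a different share of green cells plays a part in any result below was not tested.

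One day after the switch, 6 of 8 measured genes of mitosis and cytokinesis rose, 8 of 15 genes that ABA or cold induces fell, and the clock gene GI was 3.48-fold lower. Of 21 genes of sugar transport and starch, 4 rose and 3 fell. These and the other lists below were chosen with earlier results of these data known, so their counts are descriptions and not tests. Members were found mainly by gene name, so most genes of these kinds without a name are left out. Of 16550 genes, 455 rose (2.75%) and 456 fell (2.76%), or 911 in all. Counted by probe set, 914 of 16722 with 1 gene (5.47%) and 1874 of all 38408 (4.88%) were called. Most changes were small, with a median of 1.48-fold among the genes that rose and 1.48-fold among those that fell. The falls reached further: 81 genes fell at least 2-fold and 33 rose as much, and 11 fell and 1 rose at least 4-fold. The median difference over all genes was 0.02 on the log2 scale. In 3981 genes (24.1%) the 3 day 1 pools all lay on one side of the 3 day 0 pools, and that was so for all 911 called genes. The even split depended on the scaling: among probe sets with 1 gene, 457 rose and 457 fell as deposited, but 577 and 370 after each array was centred on its median.

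**Figure D1:**
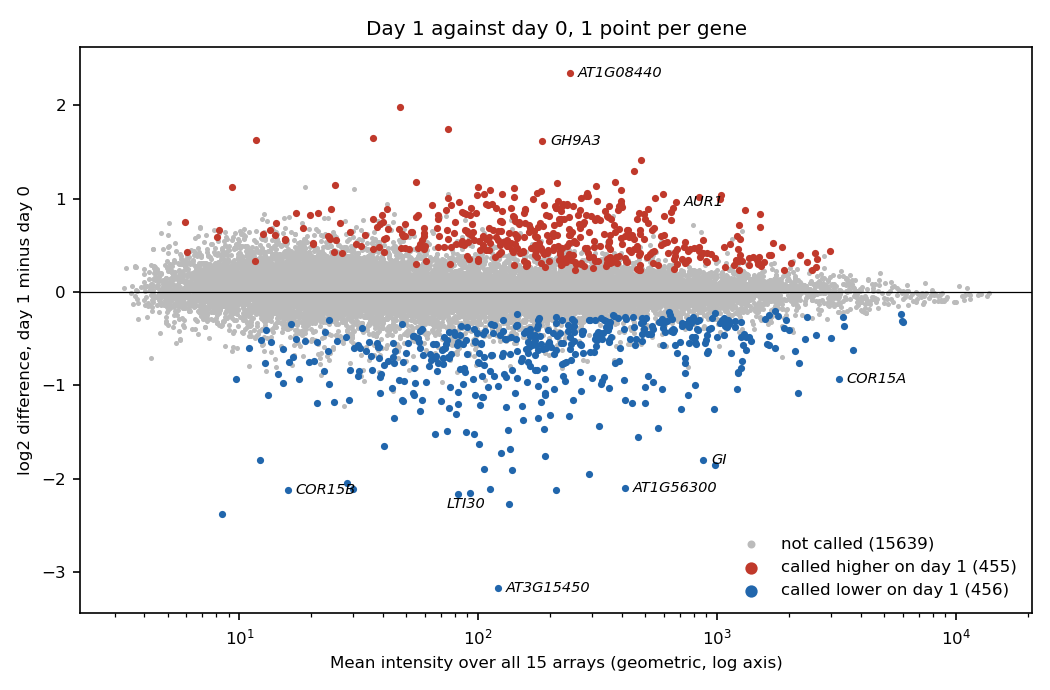
Difference between day 1 and day 0 (log2, vertical axis) against mean intensity over all 15 arrays (log axis), with 1 point per gene. Red points are the 455 genes called higher on day 1, blue points the 456 called lower and grey points the rest. The lowest blue points lie further from 0 than the highest red ones, and few genes were called at low intensity.

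Calls depended on brightness. In the dimmest of the 4 bins of genes, with mean intensities up to 21.3, only 0.991% were called, against 9.19% and 8.65% in the 2 brighter bins. The median standard error was 0.18 in the dimmest bin and 0.08 in the brightest, so a change of a given size was harder to detect in dim genes. On the 5 nuclear chromosomes the share called ran from 4.68% on chromosome 3 to 6.09% on chromosome 5. Of the 63 plastid-encoded genes measured, 0 were called, and their median difference was −0.05.

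Of 8 measured genes of mitosis and cytokinesis, 6 were called higher on day 1, among them all 3 Aurora kinases. Aurora kinases phosphorylate histones and other chromosome proteins so that chromosomes condense, attach to the spindle and part. AUR1 (AT4G32830) had intensities of 905, 1120 and 1097 in the day 1 pools, against 552, 552 and 491 in the day 0 pools. AUR2 (AT2G25880) had 326, 372 and 403 on day 1, against 180, 198 and 196 on day 0. AUR3 (AT2G45490), which acts at centromeres, had 663, 651 and 663 on day 1, against 372, 393 and 376 on day 0. In each of the 3 kinases every day 1 pool lay above every day 0 pool. The rises were 1.95-fold for AUR1 (log2 0.96 ± 0.11, adjusted p = 1.77e-04), 1.92-fold for AUR2 (0.94 ± 0.10, adjusted p = 1.99e-04) and 1.73-fold for AUR3 (0.79 ± 0.10, adjusted p = 5.22e-04).

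Other parts of the division machinery showed the same direction. BUBR1 (AT2G33560), a protein of the checkpoint that holds mitosis until all chromosomes are attached, had 596, 543 and 598 on day 1, against 326, 350 and 341 on day 0, a 1.71-fold rise (0.77 ± 0.07, adjusted p = 3.44e-05). KINESIN-12B (AT3G23670), a motor of the phragmoplast in which the new cell plate forms, had 365, 427 and 441 on day 1, against 227, 251 and 230 on day 0. HTR12 (AT1G01370), the centromere form of histone H3, had 411, 460 and 450 on day 1, against 311, 289 and 305 on day 0. The day 1 and day 0 pools of these 3 genes did not overlap. KINESIN-12B rose 1.74-fold (0.80 ± 0.10, adjusted p = 4.57e-04) and HTR12 rose 1.46-fold (0.54 ± 0.08, adjusted p = 9.97e-04). In the mitosis and cytokinesis list 6 of 8 members rose and 0 fell, beside 2.75% of all genes that rose. This list was chosen with earlier results of these data known. Its median difference was 0.78, beside 0.02 over all genes. The 2 members that did not pass were the condensin subunit gene ATSMC2, at 0.42 (adjusted p = 0.0576), and KINESIN-13A, a microtubule-depolymerising motor, at 0.19 (adjusted p = 0.200).

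Only 2 genes for copying DNA were found by name, and neither passed: PSF2 and PRL, a subunit each of the replication machinery, were at 0.08 and 0.06. Replication genes without a matching name are not in this count. Of 2 histone genes found by name, HTB2 was at 0.47 and HON4 at 0.06, and neither was called. None of 7 tubulin and actin genes was called, with differences between −0.44 and 0.50. With 5.50% of all genes called, counts of 0 in lists this small are near the background.

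Further division genes were looked up after their values had been seen, so they describe the group and do not add to the count. TOPII (AT3G23890), the topoisomerase that untangles sister chromatids, had 748, 746 and 731 on day 1, against 450, 477 and 481 on day 0. It rose 1.58-fold (0.66 ± 0.07, adjusted p = 2.38e-04). The checkpoint gene BUB3.1 rose 1.53-fold and its relative BUB3.2 was at 0.21 (adjusted p = 0.288). Haspin, a kinase that marks histone H3 at centromeres, rose 1.51-fold, and FU, a FUSED-type kinase needed for cytokinesis, rose 1.54-fold. UBC19, a ubiquitin-conjugating enzyme of dividing cells, rose 1.36-fold, and the cyclin CYCJ18 rose 1.44-fold. Some genes best known from meiosis moved with them: SDS, a meiotic cyclin, rose 1.51-fold, RCK, a helicase of crossover formation, rose 1.55-fold, and JASON, known for its part in the spindles of male meiosis, rose 1.65-fold (adjusted p = 0.00142, 7.91e-04 and 0.00482). With only the 6 arrays of day 1 and day 0, the adjusted p of SDS was 0.0546. TON1 and its recruiting proteins position cortical microtubules before division. Of 16 measured members of this family 4 rose and 0 fell, beside 2.75% of all genes that rose. The family was counted after values had been seen, and its median was 0.10. The 4 were TRM25 (1.78-fold), TRM20 (1.44-fold), TRM22 (1.32-fold) and TON1B (1.22-fold). The call of TON1B (adjusted p = 0.0476) was lost without any 1 of 5 of the 6 pools, at adjusted p up to 0.189, and that of TRM22 (0.0107) without day 1 replicate 3, at 0.0513.

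**Figure D2:**
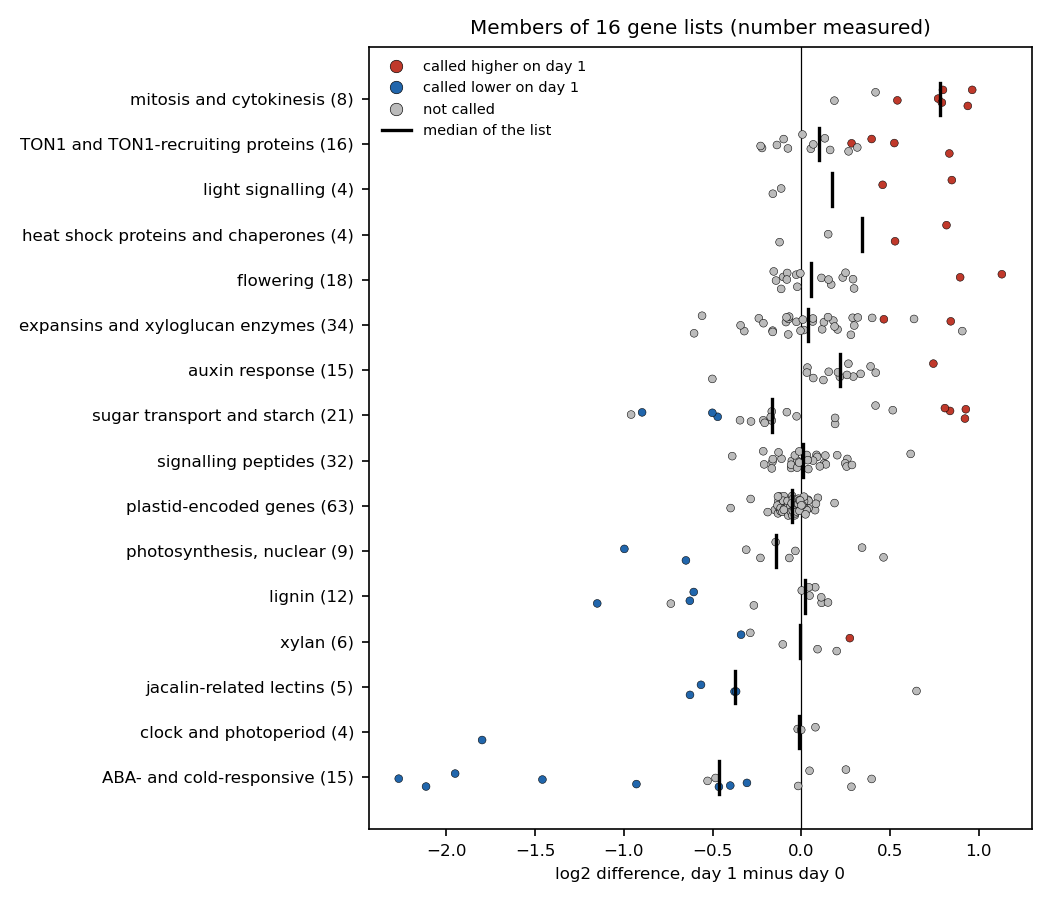
Differences between day 1 and day 0 (log2) for the members of 16 gene lists, with the number of measured members in brackets. Red and blue points passed the test as higher and lower on day 1, grey points did not, and the black bar is the median of each list. In mitosis and cytokinesis 6 of 8 points are red, and in the ABA- and cold-responsive list 8 of 15 are blue.

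Of 15 measured genes that ABA or cold induces, 8 fell and 0 rose, and 3 of the 8 were among the 12 largest falls of all genes. Dehydrins are small hydrophilic proteins that protect membranes and enzymes in drying or freezing cells. The dehydrin gene LTI30 (AT3G50970) had 92.2, 84.98 and 92.1 in the day 1 pools, against 457, 424 and 417 in the day 0 pools. The dehydrin gene COR47 (AT1G20440) had 255, 297 and 308 on day 1, against 1237, 1096 and 993 on day 0. COR15B (AT2G42530), whose product protects chloroplast membranes, had 12.7, 13.4 and 11.5 on day 1, against 53.4, 56.5 and 52.6 on day 0. Its neighbour and close relative COR15A (AT2G42540) had 4996, 3990 and 4356 on day 1, against 8951, 8238 and 8125 on day 0. COR27 (AT5G42900), which links cold to the clock, had 299, 255 and 245 on day 1, against 847, 846 and 540 on day 0. In all 5 genes the pools of the days did not overlap, and the falls were 4.82-fold for LTI30, 4.33-fold for COR15B, 3.87-fold for COR47, 2.75-fold for COR27 and 1.90-fold for COR15A. Their adjusted p-values ran from 7.96e-07 for COR15B to 2.11e-04 for COR27. COR15B was dim on day 1, and with a pseudocount of 16 added to every intensity its fall was 2.46-fold.

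The 8 falls among 15 members of the ABA- and cold-responsive list stand beside 2.76% of all genes that fell, and the median of the list was −0.46. That list, too, was chosen with earlier results of these data known. The other 3 that fell did so by less: AT1G54410, the dehydrin HIRD11, by 1.38-fold, the late embryogenesis gene AtLEA4-1 by 1.32-fold, and the cold-induced gene KIN2 by 1.24-fold. KIN2 averaged 6229 ± 440 on day 1 and 7692 ± 265 on day 0 (SD, n = 3). The call of KIN2 was lost without any 1 of 5 of the 6 pools (adjusted p up to 0.144), that of AtLEA4-1 without 3 (up to 0.0826) and that of AT1G54410 without day 0 replicate 2 (0.0531). With only the 6 arrays of day 1 and day 0, 5 of the 8 remained called, namely LTI30, COR15B, COR47, COR27 and COR15A. The 7 members that did not pass were spread on both sides of 0. KIN1, next to KIN2 on the chromosome, was at −0.53 (adjusted p = 0.182), the gene listed as LEA at −0.48 (0.111) and the drought-inducible linker histone HIS1-3 at −0.02. The late embryogenesis gene AT2G46140 was at 0.40 (adjusted p = 0.0706), and LEA18, HVA22C and AT2G44060 were at 0.28, 0.25 and 0.05. Close copies such as COR15A and COR15B, KIN1 and KIN2, or AUR1 and AUR2 may share signal between probe sets, which was not tested.

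A few more genes with links to stress were looked up after their values had been seen and were chosen because they fell, so they say nothing of stress genes as a group. TINY2 (AT5G11590), a transcription factor of the DREB group that acts in drought and cold responses, had 95.7, 87.1 and 85.2 on day 1, against 211, 218 and 233 on day 0, a 2.47-fold fall (−1.31 ± 0.11, adjusted p = 2.96e-05). AT5G61590, which encodes DEWAX, a repressor of wax synthesis genes, had 52.5, 65.01 and 92.8 on day 1, against 208, 295 and 270 on day 0, a 3.74-fold fall (−1.90 ± 0.25, adjusted p = 5.89e-04). SIS, a salt-induced gene, fell 2.09-fold, and Fes1B, a partner of Hsp70 chaperones, fell 2.03-fold. Not every gene with an ABA link fell: EEL (AT2G41070), a bZIP factor of the ABA response in seeds, had 157, 215 and 166 on day 1, against 106, 95.6 and 91.6 on day 0, and rose 1.82-fold (0.86 ± 0.12, adjusted p = 7.40e-04). Of 4 chaperone genes 2 rose and 0 fell, beside 2.75% of all genes that rose. The 2 were the cytosolic Hsp70-2 (1.76-fold) and the chloroplast chaperonin subunit Cpn60beta2 (1.44-fold). The call of Hsp70-2 was lost without day 1 replicate 2 or day 0 replicate 2, at adjusted p up to 0.0604.

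In the clock and photoperiod list 1 of 4 measured members fell and 0 rose, beside 2.76% of all genes that fell. GI (AT1G22770), the clock-linked protein GIGANTEA that carries day length information to the flowering pathway, had 542, 517 and 468 in the day 1 pools, against 1884, 1791 and 1636 in the day 0 pools. The pools were far apart, and GI fell 3.48-fold (−1.80 ± 0.11, adjusted p = 4.21e-06). The other members, FIO1, TIC and XCT, were at 0.08, −0.02 and 0.00. GI is known for a strong daily rhythm, and the hour of harvest is not given. CCL (AT3G26740), whose messenger RNA is unstable and under clock control, had 236, 152 and 135 on day 1, against 632, 776 and 813 on day 0, and fell 4.35-fold (−2.12 ± 0.27, adjusted p = 5.01e-04). The part of sampling time in either difference was not tested.

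Of 4 genes of light signalling 2 rose and 0 fell, beside 2.75% of all genes that rose. HYH (AT3G17609), a bZIP factor and close relative of HY5 that promotes development in light, had 36.9, 40.4 and 31.8 on day 1, against 18.97, 19.7 and 21.7 on day 0. It rose 1.80-fold (0.85 ± 0.14, adjusted p = 0.00387), and its pools did not overlap. HAT2 (AT5G47370), a homeodomain factor of shade and auxin responses, had 784, 696 and 678 on day 1, against 511, 514 and 542 on day 0, and rose 1.38-fold (0.46 ± 0.09, adjusted p = 0.00917). With only the 6 arrays compared, the adjusted p of HAT2 was 0.0585. PIF7, a factor that phytochrome inhibits, was at −0.16 and AT1G72390, the flowering gene PHL, at −0.11, both not called. Another bZIP factor moved more than any other in its list: bZIP48 (AT2G04038) had 26.6, 18.9 and 18.8 on day 1, against 60.4, 100 and 108 on day 0. It fell 4.11-fold (−2.04 ± 0.23, adjusted p = 2.42e-04), in a list of 23. Of that list 1 fell and 2 rose, beside 2.76% and 2.75% of all genes.

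The flowering list has 18 measured members, of which 2 rose and 0 fell, beside 2.75% of all genes that rose. Its median was 0.06. The 2 that rose are known to act in opposite directions. ATC (AT2G27550), a relative of TFL1 that travels through the vasculature and delays flowering in short days, had 544, 529 and 433 on day 1, against 280, 191 and 221 on day 0. AGL24 (AT4G24540), a MADS-box factor that promotes flowering, had 124, 112 and 121 on day 1, against 60.7, 60.8 and 70.4 on day 0. In both genes the pools did not overlap, with a rise of 2.19-fold for ATC (1.13 ± 0.19, adjusted p = 0.00322) and 1.86-fold for AGL24 (0.90 ± 0.09, adjusted p = 8.44e-05). FD, the partner of the florigen FT, was at 0.23 (adjusted p = 0.253) and not called. The further MADS-box genes AGL42, AGL71 and AGL72 were at 0.17, 0.29 and −0.08, none of them called. The well-known early targets of long days FT and SOC1 are not analysed here.

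Of 21 measured genes of sugar transport and starch, 4 rose and 3 fell, beside 2.75% and 2.76% of all genes, and the median was −0.17. SWEET13 (AT5G50800), an exporter of sucrose for phloem loading, had 642, 479 and 534 in the day 1 pools, against 280, 252 and 342 in the day 0 pools. APL4 (AT2G21590), a large subunit of the enzyme that commits glucose to starch, had 562, 493 and 518 on day 1, against 288, 266 and 348 on day 0. SBE2.2 (AT5G03650), a starch branching enzyme, had 1692, 1435 and 1566 on day 1, against 868, 795 and 962 on day 0. ATSPS4F (AT4G10120), a sucrose phosphate synthase, had 81.2, 81.2 and 74.3 on day 1, against 43.3, 36.3 and 45.1 on day 0. None of these 4 had overlapping pools, and they rose 1.90-fold (SWEET13, adjusted p = 0.00169), 1.75-fold (APL4, adjusted p = 5.03e-04), 1.79-fold (SBE2.2, adjusted p = 7.72e-05) and 1.90-fold (ATSPS4F, adjusted p = 9.81e-04).

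On the falling side, cwINV6 (AT5G11920), of the cell wall invertase family, had 93.6, 92.5 and 99.3 on day 1, against 174, 190 and 168 on day 0, a 1.86-fold fall (−0.90 ± 0.10, adjusted p = 2.12e-04). TMT1 (AT1G20840), which loads sugars into the vacuole, had 1835, 1727 and 1907 on day 1, against 2505, 2607 and 2464 on day 0, a 1.39-fold fall (−0.47 ± 0.06, adjusted p = 3.86e-04). DPE1 (AT5G64860), which recycles short glucans during starch breakdown in the plastid, averaged 417 ± 20 on day 1 and 591 ± 41 on day 0 (SD, n = 3), a 1.42-fold fall (adjusted p = 9.50e-04). Members close to the called ones did not pass. APL3, another large subunit like APL4, was at 0.42 (adjusted p = 0.101), and SWEET11 and SWEET14, of the same transporter family as SWEET13, were at −0.21 and −0.17 (0.744 and 0.741). TMT2 and TMT3 were at −0.17 and −0.08 (0.197 and 0.915), the amylase gene AMY1 at −0.21 (0.450), SWEET16 at −0.96 (0.0759) and SWEET17 at −0.28 (0.0837). AKINBETA1 (AT5G21170), a regulatory subunit of the SnRK1 kinase that responds to energy shortage, averaged 445 ± 28 on day 1 and 640 ± 46 on day 0 and fell 1.44-fold (−0.53 ± 0.09, adjusted p = 0.00384). It was the 1 call among 5 genes found by name that darkness or sugar shortage induces, beside 2.76% of all genes that fell. AT3G15450, also induced by darkness, is listed by locus tag alone and was not among the 5. It fell 8.96-fold and is described below. Of 11 autophagy genes 0 were called, beside 5.50% of all genes, with differences from −0.49 to 0.23. A count of 0 in a list of this size is near the background.

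**Figure D3:**
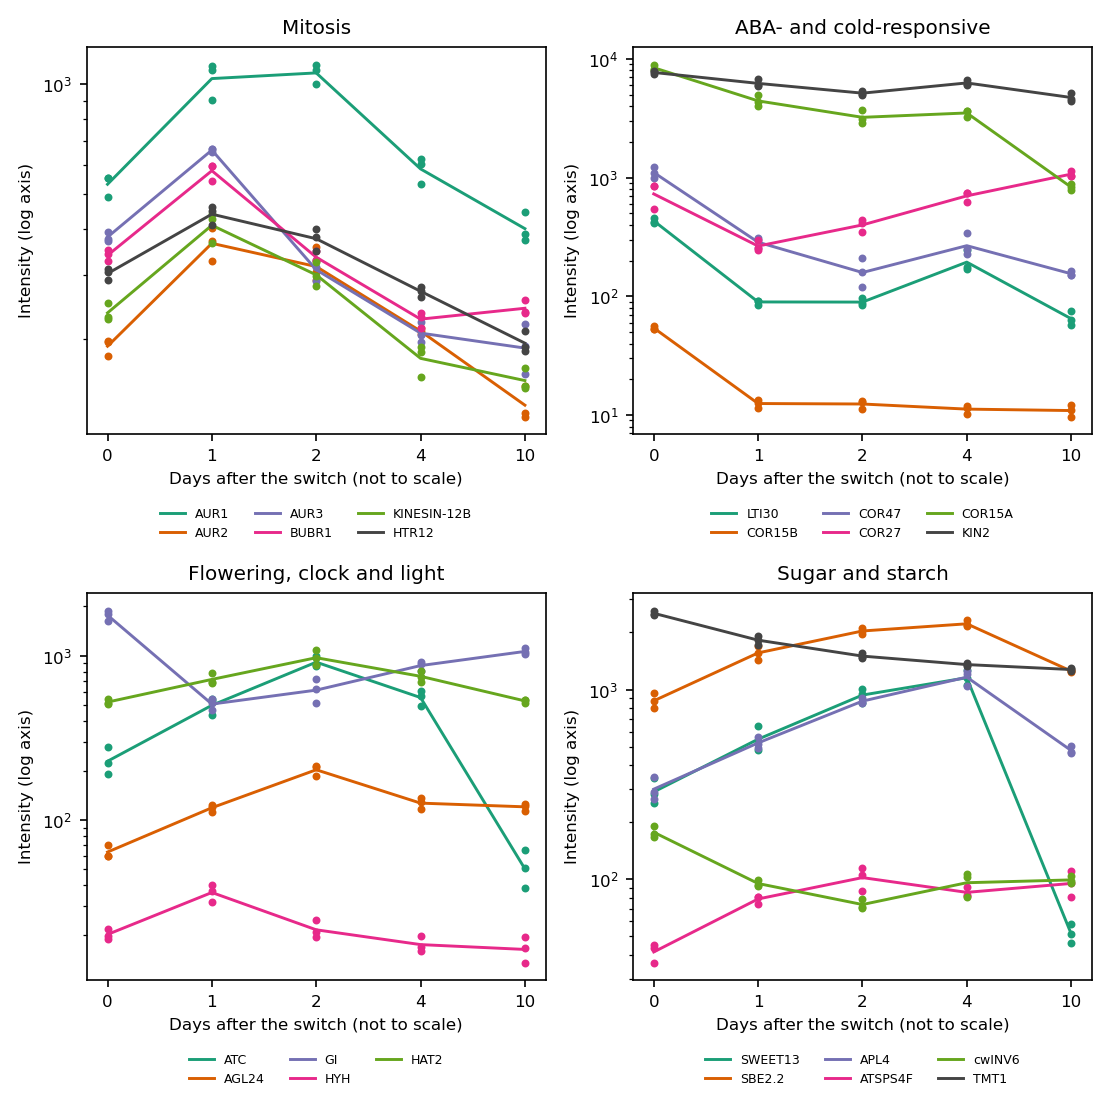
Intensity (log axis) of genes of 4 groups on days 0, 1, 2, 4 and 10 after the switch, with 1 dot per pool and lines through the geometric mean of the 3 pools of each day. The mitosis genes have their highest mean on day 1, except AUR1, which was at 1041 on day 1 and 1075 on day 2. GI has its lowest mean on day 1 and ATC and SWEET13 drop steeply between days 4 and 10.

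Among genes of photosynthesis encoded in the nucleus, 2 of 9 fell and 0 rose, beside 2.76% of all genes that fell. The median of the list was −0.14. LHB1B2 (AT2G34420), an antenna protein of photosystem II, had 900, 798 and 710 on day 1, against 1489, 1577 and 1724 on day 0, a 1.99-fold fall (−0.997 ± 0.21, adjusted p = 0.0162). LHCB4.2 (AT3G08940), a minor antenna protein, had 332, 279 and 289 on day 1, against 413, 490 and 510 on day 0, a 1.57-fold fall (−0.65 ± 0.15, adjusted p = 0.0290). The pools did not overlap in either gene, but both calls were lost without any 1 of day 1 replicates 2 and 3 and day 0 replicates 2 and 3, at adjusted p up to 0.0712 for LHB1B2 and 0.109 for LHCB4.2. Both are also among the genes that set the lower photosynthesis sum on day 1. RCA, the activase of the carbon-fixing enzyme, was at −0.14 and LHCB4.3 at 0.46, neither of them called. Of plastid genes singled out after their values had been seen, PORB, a chlorophyll synthesis enzyme, fell 1.46-fold (−0.55 ± 0.10, adjusted p = 0.00731, or 0.0878 with only the 6 arrays compared) and the chloroplast lipocalin CHL fell 1.46-fold (−0.55 ± 0.07, adjusted p = 5.51e-04). LIL3:2, a protein related to the antenna proteins that acts in chlorophyll synthesis, rose 1.42-fold (adjusted p = 0.0211), a call lost without any 1 of 4 pools (adjusted p up to 0.0910).

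The series concerns fibres of the xylem, whose walls are rich in lignin and xylan. Of 12 lignin genes 3 fell and 0 rose, beside 2.76% of all genes that fell, and the median was 0.02. Of 3 secondary wall regulators and cellulose genes 0 were called, beside 5.50% of all genes, with differences from −0.32 to 0.24. BGLU45 (AT1G61810), a glucosidase that frees lignin monomers from their glucosides, had 72.2, 56.4 and 69.4 on day 1, against 149, 168 and 123 on day 0, and fell 2.22-fold (−1.15 ± 0.15, adjusted p = 5.20e-04). AT5G66390, the peroxidase PRX72 that polymerises lignin, averaged 152 ± 3 on day 1 and 232 ± 30 on day 0 and fell 1.52-fold (adjusted p = 0.00403, or 0.0527 with only the 6 arrays compared). UGT72E1, which adds glucose to lignin precursors, fell 1.55-fold at adjusted p = 0.0306, a call lost without any 1 of the 6 pools (up to 0.111). HCT and CCR2, enzymes on the path to lignin monomers, were at 0.05 and 0.12. Of 6 xylan genes 1 rose and 1 fell, beside 2.75% and 2.76% of all genes. The risen and the fallen gene are close relatives: IRX15 (AT3G50220) was 1.26-fold lower (adjusted p = 0.0494), whereas IRX15-L (AT5G67210) was 1.21-fold higher (adjusted p = 0.0346). IRX15-L lost its call without any 1 of 5 pools (up to 0.128) and IRX15 without any 1 of the 6 (up to 0.156). GUT2, also known as IRX10, was at −0.29 (adjusted p = 0.0563).

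For vascular tissue itself, 1 of 7 markers of cambium, xylem and phloem rose and 0 fell, beside 2.75% of all genes that rose. PHV (AT1G30490), a homeodomain factor of the HD-ZIP III group that patterns vascular tissue, had 1490, 1533 and 1547 on day 1, against 1242, 1240 and 1220 on day 0. It rose only 1.23-fold (0.30 ± 0.06, adjusted p = 0.00611), and the pools of the days did not overlap. With only the 6 arrays compared its adjusted p was 0.0840. CLE41, CLE42 and CLE44, which encode the peptide that keeps cambium cells undifferentiated, were at −0.16, 0.03 and −0.02. FACT, which makes waxes of suberised tissue, was the 1 cork marker found by name. It averaged 583 ± 4 on day 1 and 760 ± 53 on day 0. It fell 1.30-fold (−0.38 ± 0.06, adjusted p = 0.00241, or 0.0819 with only the 6 arrays compared).

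Among 34 expansins and xyloglucan enzymes 2 rose and 0 fell, beside 2.75% of all genes that rose, and the median was 0.04. EXPA9 (AT5G02260), an expansin, had 124, 100 and 104 on day 1, against 59.6, 66.5 and 56.4 on day 0, and rose 1.79-fold (0.84 ± 0.13, adjusted p = 0.00190). EXPA20 rose 1.38-fold (0.47 ± 0.07, adjusted p = 0.00240). GH3.3 (AT2G23170), an auxin-induced enzyme that conjugates auxin to amino acids, had 70.6, 75.2 and 62.7 on day 1, against 45.5, 39.4 and 39.5 on day 0, and rose 1.68-fold (0.74 ± 0.11, adjusted p = 0.00150). It was the 1 call among 15 auxin genes, whose median was 0.22, beside 2.75% of all genes that rose. None of 4 gibberellin genes, 2 cytokinin genes, 3 brassinosteroid genes or 2 jasmonate genes was called. Over all genes 5.50% were called, so a count of 0 in lists this small is near the background.

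Among 32 signalling peptides (median 0.01), 14 glutathione transferases, 12 defence proteins, 9 bHLH factors and 7 WRKY factors 0 were called. With 5.50% of all genes called, a count of 0 in lists of this size is near the background. Of 4 anthocyanin genes 0 were called: DFR had means of 7421 on day 1 and 7370 on day 0, at 0.01, and UF3GT was at 0.05. The list of sulfur nutrition and glucosinolates also takes in jacalin-related lectins and beta-glucosidases. Of its 27 genes 1 rose and 5 fell, beside 2.75% and 2.76% of all genes, and the median was −0.08. The rise was BGLU40 (1.37-fold), and the falls were BGLU45, described above, and 4 lectins. Jacalin-related lectins, some of which bind the myrosinases of the glucosinolate defence, were counted as a family after values had been seen. Of 5 found by name 4 fell, beside 2.76% of all genes that fell, and these are the same 4 lectins as in the list. Lectins of this family without a matching name were not counted. JAL33 fell 1.55-fold (adjusted p = 0.00200) and JAL34, its neighbour on chromosome 3, 1.48-fold (0.0115), while JAL22 and JAL31 fell 1.30-fold and 1.29-fold. The fifth, JAL23, was at 0.65 (adjusted p = 0.0508). The calls of JAL22 and JAL31 were lost without any 1 of at least 5 of the 6 pools (adjusted p up to 0.186) and that of JAL34 without day 0 replicate 2 (0.0530). Among 48 UDP-glycosyltransferases 3 rose and 2 fell, and among 26 cytochromes P450 CYP84A4 rose (1.46-fold) and CYP71B23 (1.399-fold) and CYP78A9 (1.48-fold) fell, beside 2.75% and 2.76% of all genes. The calls of CYP84A4 and CYP78A9 were each lost without any 1 of 5 pools and that of CYP71B23 without any 1 of 4, at adjusted p up to 0.180, and with only the 6 arrays compared none of the 3 passed (0.142, 0.0810 and 0.160 for CYP84A4, CYP78A9 and CYP71B23).

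The gene table lists 11 of the 12 largest rises and 7 of the 12 largest falls by locus tag alone. Only 1805 of all 16550 genes have a symbol, so this holds for most genes. AT3G15450 had 102, 92.2 and 98.9 on day 1, against 810, 1046 and 790 on day 0, the largest fall of all at 8.96-fold (−3.16 ± 0.18, adjusted p = 3.35e-06). AT1G56300 had the smallest spread among the large falls, with 362, 355 and 381 on day 1, against 1628, 1548 and 1531 on day 0, or 4.29-fold (−2.10 ± 0.07, adjusted p = 4.23e-08). AT3G62950 had 6.18, 6.46 and 8.08 on day 1, near the dim end of the array, against 34.9, 66.7 and 19.5 on day 0. Its fall of 5.20-fold (−2.38 ± 0.32, adjusted p = 7.66e-04) did not pass with only the 6 arrays compared (adjusted p = 0.0579). Such dim values make the fold uncertain, and with a pseudocount of 16 it was 2.32-fold. The neighbouring genes AT4G16000 and AT4G16008 fell 4.33-fold and 4.48-fold, and AT5G59080 and AT5G49850 fell 4.44-fold and 4.31-fold.

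On the rising side, AT1G08440 had 269, 169 and 270 on day 1, against 29.4, 46.7 and 67.8 on day 0. It was the largest rise at 5.08-fold (2.35 ± 0.25, adjusted p = 1.62e-04), with a wide spread among the pools of both days. AT3G50610 had 69.8, 76.6 and 58.4 on day 1, against 17.9, 18.1 and 16.0 on day 0, a 3.93-fold rise (1.98 ± 0.19, adjusted p = 6.60e-05). AT5G66816 had 66.8, 68.3 and 71.3 on day 1, against 21.4, 18.3 and 22.4 on day 0, a 3.34-fold rise (1.74 ± 0.12, adjusted p = 6.97e-06). With a pseudocount of 16 these 2 rises were 2.52-fold and 2.31-fold. The 1 named gene in this set was GH9A3 (AT4G24260), also called KOR3, an endoglucanase relative of the cellulose synthesis protein KORRIGAN. It had 182, 209 and 232 on day 1, against 79.4, 68.6 and 56.7 on day 0, a 3.06-fold rise (1.61 ± 0.14, adjusted p = 4.32e-05). AT4G08869 had 22.1, 39.5 and 9.15 on day 1, against 6.37, 7.22 and 5.94 on day 0. Its pools did not overlap, but its rise of 3.08-fold rested on unequal values (adjusted p = 0.0393) and lost its call without any 1 of 5 pools, at adjusted p up to 0.116. With a pseudocount of 16 it was 1.67-fold and not called (0.0606). The others among the 12 were AT3G46280 (3.13-fold), AT1G43910 (2.67-fold), AT3G15650 (2.45-fold), AT1G52700 (2.26-fold), AT3G51230 (2.26-fold), AT1G63100 (2.25-fold) and AT1G51850 (2.22-fold, adjusted p = 0.0654 with only the 6 arrays compared).

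**Figure D4:**
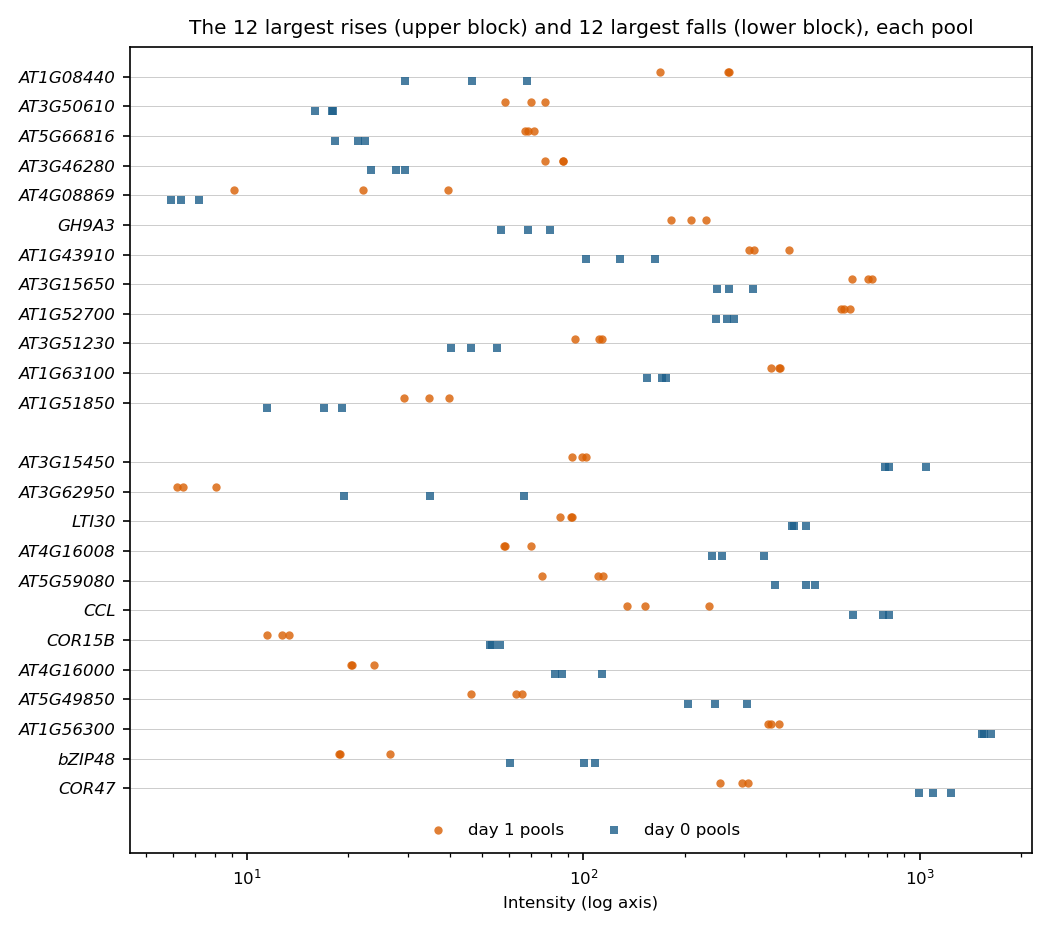
Intensity (log axis) in each pool for the 12 largest rises (upper block) and the 12 largest falls (lower block), by the gene's symbol or locus tag. Orange circles are day 1 pools and blue squares are day 0 pools, 3 of each. The 2 days do not overlap in any of the 24 genes, which the choice of genes required, and the spread within a day is widest for AT4G08869 and AT3G62950.

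Other enzymes and regulators, singled out after their values had been seen, moved in both directions. ATMPK13 (AT1G07880), a MAP kinase, had 766, 860 and 860 on day 1, against 425, 401 and 413 on day 0, and rose 2.00-fold (1.00 ± 0.07, adjusted p = 1.38e-05). MGL (AT1G64660), which breaks down methionine, averaged 358 ± 6 on day 1 and 195 ± 20 on day 0 and rose 1.84-fold (0.88 ± 0.08, adjusted p = 4.19e-05). CHX16 (AT1G64170), of the cation/proton exchangers, had 215, 205 and 230 on day 1, against 505, 605 and 549 on day 0, and fell 2.55-fold (−1.35 ± 0.10, adjusted p = 1.54e-05). PDC2, a pyruvate decarboxylase of fermentation, fell 1.48-fold, and PPDK, pyruvate phosphate dikinase, fell 1.76-fold (adjusted p = 3.45e-04 and 0.00122).

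Called genes sometimes lay side by side. Of 8223 pairs of next neighbours on the nuclear chromosomes with both genes measured, 40 had both called, 30 of these in the same direction (20 lower, 10 higher) and 10 in opposite directions. Among the measured neighbours of a called gene 8.81% were called, beside 5.50% of all genes. The pairs include COR15B and COR15A, JAL33 and JAL34, AT4G16000 and AT4G16008, the run AT4G15680, AT4G15690 and AT4G15700, which fell 2.55-fold, 2.28-fold and 2.08-fold, and on the rising side GH9A3 and AT4G24265 (1.91-fold). AT4G15690 lost its call without any 1 of 5 pools (adjusted p up to 0.101). In 4 of the 40 pairs the annotated spans overlap, so that probes of one gene may pick up RNA of the other there. How far close copies and overlaps account for the rest was not tested.

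Later steps that use neither day 1 nor day 0 show how these genes moved from day 2 on, but not whether they stayed above or below their level of day 0. From day 2 to day 4, 151 of the 455 genes that had risen on day 1 were called lower (33.2%) and 22 higher (4.84%), beside 3.25% lower and 2.49% higher over all 16550 genes. From day 4 to day 10, 168 of them were lower (36.9%) and 25 higher (5.49%), beside 8.43% lower and 9.35% higher over all genes. The 151 are 28.1% of all genes called lower between days 2 and 4. Called genes are bright, and among the 8275 genes of the 2 brighter bins 5.46% were lower and 3.87% higher from day 2 to day 4, and 13.5% lower and 15.2% higher from day 4 to day 10. All steps share 1 estimate of each gene's spread, so genes with little spread are called more readily in every step.

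The 456 genes that had fallen on day 1 showed less of a direction. From day 2 to day 4, 54 were higher (11.8%) and 28 lower (6.14%), and from day 4 to day 10, 111 were higher (24.3%) and 97 lower (21.3%). The difference between the risers and the fallers in these shares was not tested.

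**Figure D5:**
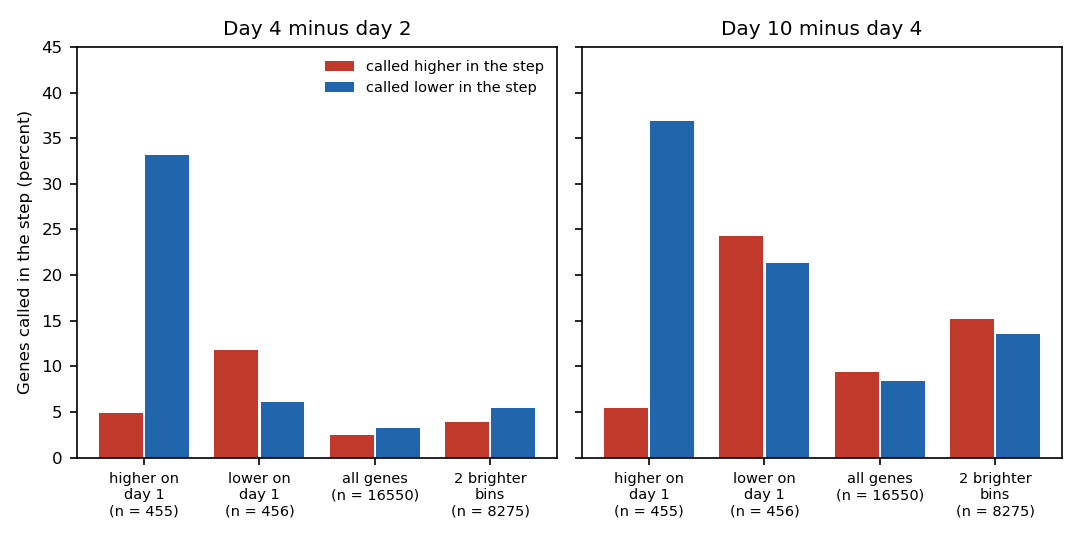
Percent of genes called higher (red) and lower (blue) between days 2 and 4 (left) and between days 4 and 10 (right), for genes that had risen on day 1, genes that had fallen on day 1, all genes, and genes of the 2 brighter bins. The tallest bars are the 33.2% and 36.9% of day 1 risers that were lower in the later steps.

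The single groups differed in these later steps. All 6 mitosis genes that rose on day 1 were called lower from day 2 to day 4. In that step 33.2% of all 455 day 1 risers and 3.25% of all genes were called lower. BUBR1 had means of 335 on day 2 and 227 on day 4 (adjusted p = 6.70e-04), and AUR1 had 1075 and 587 (adjusted p = 7.26e-04). The means on day 2 compare with 579 on day 1 and 339 on day 0 for BUBR1, and for AUR3 with 659 on day 1 and 380 on day 0, where the mean on day 2 was 310. Differences of the later days from day 0 use the same day 0 pools as the day 1 difference, and are given as levels. On day 10 AUR1 was 1.32-fold, AUR3 2.02-fold and BUBR1 1.397-fold below day 0. AGL24 was lower from day 2 to day 4 (adjusted p = 0.00118) and still 1.99-fold above day 0 on day 4 and 1.89-fold above it on day 10. Of the 4 sugar genes that rose on day 1, SWEET13, APL4 and SBE2.2 had their highest means on day 4, at 1158, 1166 and 2223, although from day 2 to day 4 only APL4 was called higher (adjusted p = 0.240, 0.0354 and 0.421 for SWEET13, APL4 and SBE2.2). They were lower on day 10, at 51.9, 478 and 1252 (adjusted p = 1.36e-09, 5.73e-06 and 2.97e-05), where SWEET13 was 5.59-fold below day 0, APL4 1.599-fold above it and SBE2.2 1.435-fold above it. ATSPS4F, the fourth, had its highest mean on day 2, with 103, 85.45 and 95.9 on days 2, 4 and 10, and neither step was called (adjusted p = 0.287 and 0.467). ATC had means of 916 on day 2, 559 on day 4 and 51.6 on day 10, the last step at adjusted p = 2.25e-07.

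In the ABA- and cold-responsive list 4 of 15 members were higher and 0 lower from day 2 to day 4. Over all genes 2.49% were higher and 3.25% lower in that step. From day 4 to day 10, 2 of the 15 were higher and 7 lower, beside 9.35% and 8.43% of all genes. LTI30 had means of 89.6 on day 2, 197 on day 4 and 65.2 on day 10, higher in the first of these steps (adjusted p = 8.55e-04) and lower in the second (adjusted p = 1.12e-05). COR47 had 163, 271 and 155 on those days and was called in the same directions (adjusted p = 0.0397 and 0.0134). COR15A had 3236, 3508 and 832, lower in the second step only (adjusted p = 1.22e-07), and on day 10 was 10.15-fold below day 0. COR27 had 401, 704 and 1071, higher in both steps (adjusted p = 0.0136 and 0.0233). COR15B was at 12.4, 11.3 and 10.95, near its level of day 1, with neither step called (adjusted p = 0.470 and 0.838). GI had means of 624, 873 and 1064 on days 2, 4 and 10, higher from day 2 to day 4 (adjusted p = 0.0242) and not called from day 4 to day 10 (adjusted p = 0.104). The largest fall of day 1, AT3G15450, was at 69.2, 71.2 and 64.0 on days 2, 4 and 10, with neither step called (adjusted p = 0.960 and 0.600). AT1G08440, the largest rise, was at 508, 480 and 322, again with neither step called (adjusted p = 0.899 and 0.142).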

How the data were processed

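Gene expression was measured on 15 arrays, of which 6 are compared here. The deposited values are normalised intensities on a linear scale. Per the submitters' processing notes, RMA and Partek were used. Their versions, their roles and the genome build of the array annotation are not stated there, hence no positions appear. The log2 of each intensity, without a pseudocount, was fitted with limma 3.58.1 (R 4.3.3) as 1 mean for each of the 5 days on the 15 arrays, leaving 10 residual degrees of freedom. Tests are two-sided. The pools are separate plants, so the p-values rest on the spread from pool to pool, and precision is limited by the number of arrays.

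Probe sets with several genes (759) or no listed gene (20927) were tested but not named. The RefSeq table (TAIR10.1) holds a locus tag for 16411 of the 16550 genes, and 1805 have a symbol. Each gene is represented by its brightest probe set. Named genes are, among called genes whose pools do not overlap, the 12 largest rises and 12 largest falls, up to 6 called members of each of 53 lists by smallest adjusted p, and any member of lists with up to 8 measured genes; others are marked in the text. Members and lists were chosen with earlier results of these data known. After values had been seen, 36 name collisions were removed from lists and 3 symbols added. For 8 lists no measured gene was matched. Members of lists and families were matched mainly by symbol or synonym, so a measured member is one with a matching name. Genes listed by locus tag alone were mostly left out of these counts. Promoter motifs were not analysed here. The fit was tested on simulated data.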

Additional observations from a re-analysis of the deposited data

How the results depend on the processing

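The alternatives were median centring, cyclic loess, only the 6 arrays compared, the replicate number as a block, an intensity trend with a robust prior, the probe sets above the median intensity, only probe sets with 1 gene, a pseudocount of 16, the probe set with the smallest adjusted p per gene, leaving out each pool in turn and, added after the data were seen, list members as first matched by name.

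The number of probe sets called, 1874 as reported, was 917 with only the 6 arrays and 1064 with only probe sets with 1 gene, where fewer were tested. Among probe sets with 1 gene, 458 were called with only the 6 arrays (235 higher, 223 lower), beside 914 as reported. Without a pool the counts ran from 1190 to 1497 for all probe sets and from 598 to 767 for those with 1 gene (314 to 386 higher, 284 to 381 lower), lowest without day 0 replicate 2. The ABA- and cold-responsive list had 5 falls with the 6 arrays and 6 to 8 without a pool, and the mitosis list had 6 or 7 rises under every alternative. Testing only probe sets above the median intensity raised the shares of all genes called lower to 9.81% (days 2 to 4) and 17.5% (days 4 to 10), and that of day 1 risers called lower ranged over the alternatives from 26.96% to 39.5% and from 35.4% to 43.2%. Same-numbered pools of day 1 and day 0 did not deviate together (r = −0.15, −0.07 and −0.05 across probe sets), so pairing was not used; with the replicate block 780 probe sets with 1 gene were called (399 higher, 381 lower), and 0 day 1 pools deviated most like the day 0 pool of their own number. Of 127 called genes named in the tables, 78 passed under every alternative that measured them and 0 changed direction. The promoter window was not run. Detection calls were not used here, so how many dim genes lie at background is unknown.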
